A study of Homo sapiens with 13 samples.

Results

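KD-only summits are positions of anti-m6A enrichment called in VIRMA-depleted MDA-MB-231 breast cancer cells with no summit called within 100 nt in control cells. They were chosen from the authors' deposited MeRIP-seq summit lists by that distance on the same chromosome. The rule kept 1983 of 5923 summits of the knockdown list, a share of 33.5% (exact Clopper-Pearson 95% interval 32.3 to 34.7%, covering counting error only). The remaining 3940 knockdown summits, with an NTC summit within 100 nt, are called kept summits here. The NTC list held 8377 summits, of which 4437 (53.0%) had no knockdown summit within 100 nt.

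VIRMA, also called KIAA1429, is the large scaffold subunit of the nuclear complex that writes N6-methyladenosine (m6A) on mRNA, around the METTL3 and METTL14 catalytic pair. The mark sits mostly in long internal exons and near stop codons, in a sequence context with a GGAC core, and is bound by YTH proteins that alter splicing, translation or decay. MeRIP-seq pulls fragmented mRNA down with an antibody to m6A, and a summit is the position of highest enrichment of a peak. Anti-m6A antibodies also bind m6Am, the methylated adenosine next to the cap, so signal at the very 5′ end of a transcript need not be the internal mark.

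The study used MDA-MB-231, a human breast cancer line of the triple-negative class, infected with lentivirus and selected as stable lines, all labelled passage P2. For MeRIP-seq there was 1 pull-down and 1 input library of KIAA1429 KD cells (knockdown, KD), and the same of non-targeting control (NTC) cells; RNA had been cut to fragments of 100 to 200 nt. The sources used here do not name the agent of the knockdown. RNA-seq covered 3 libraries each of knockout cells made with guide sg1, knockout cells made with guide sg2, and NTC cells, so 9 in all. The labels call the MeRIP-seq cells knockdown and the RNA-seq cells carry guide names. Whether the knockdown cells are one of the sg1 or sg2 lines or a separate depletion is not stated. No RNA-seq labelled as knockdown was analysed here. Whether the 3 RNA-seq libraries of a group are separate cultures is not stated in the labels, so their spread, and every p-value resting on it, may be technical. With 1 pull-down per condition, the difference between the KD and NTC summit lists has no replicate check and carries no test.

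The RNA-seq libraries held 13975173 (sg1-1) to 22051705 (sg1-3) reads in genes. VIM, a mesenchymal filament gene, ran from 18031 to 27031 normalized reads over the 9 libraries, whereas the estrogen receptor gene ESR1 stayed at or below 7.07 and the epithelial cadherin gene CDH1 at or below 19.7. MDA-MB-231 is known as mesenchymal and estrogen receptor negative. VIRMA had 1437, 1560 and 1613 normalized reads in sg1 cells and 1566, 1990 and 2170 in sg2 cells, against 2196, 2122 and 2689 in NTC cells. The sg2 libraries overlapped NTC, and the mean of both guides differed from NTC by a log2 fold change of -0.45 ± 0.13 (SE; limma, adjusted p = 0.0818). On the first principal component of the RNA-seq, with 53.3% of the variance, library sg2-1 sat at 29.6, nearer to the sg1 libraries (46.1 to 56.8) than to sg2-2 and sg2-3 (-68.5 and -77.2). The NTC libraries sat between -16.0 and -9.9.

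The bases around several KD-only summits are printed here to show the local sequence. RefSeq start windows ran from 250 bases before to 50 after each listed transcript start (GRCh38.p14). The search left out the summits of a chromosome named in the next paragraph. Of the KD-only summits searched, 37 lay in 42 such windows. Each sequence below is up to 50 bases on either side of the summit, trimmed to its window and written on the host gene's strand, with GGAC in capitals. The first pair are the 2 highest-scoring summits that fell in a window, which belonged to a neighbouring gene on the other strand, and the others are 5 of the 6 that lay 0 to 49 nt downstream of their own host gene's start.
WDR20, chr14:102208774-102208856, plus strand: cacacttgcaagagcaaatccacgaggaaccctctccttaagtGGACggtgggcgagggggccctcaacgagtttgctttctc
KLHL42, chr12:27780396-27780486, plus strand: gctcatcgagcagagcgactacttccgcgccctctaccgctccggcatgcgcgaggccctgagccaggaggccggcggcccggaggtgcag
QRICH2, chr17:76308227-76308277, minus strand: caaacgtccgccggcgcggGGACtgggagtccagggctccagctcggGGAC
RAB35, chr12:120116704-120116794, minus strand: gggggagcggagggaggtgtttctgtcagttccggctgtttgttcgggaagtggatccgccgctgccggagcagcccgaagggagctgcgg
RALY, chr20:33993871-33993960, plus strand: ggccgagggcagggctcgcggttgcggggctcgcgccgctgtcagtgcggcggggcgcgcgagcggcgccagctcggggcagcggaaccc
FBN1, chr15:48644921-48645010, minus strand: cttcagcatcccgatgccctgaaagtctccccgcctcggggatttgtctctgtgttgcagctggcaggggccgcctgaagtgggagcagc
UBE2M, chr19:58558562-58558638, minus strand: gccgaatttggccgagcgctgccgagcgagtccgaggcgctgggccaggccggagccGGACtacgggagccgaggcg

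WDR20, which encodes a WD-repeat activator of deubiquitinases, had its summit in the body of the gene, 68927 nt from the nearest listed start, and its printed stretch holds 1 GGAC. KLHL42, a BTB-Kelch adaptor of CUL3 ubiquitin ligases, had its summit 213 nt downstream of its start in a stretch without GGAC. The QRICH2 stretch holds 2 GGAC and the UBE2M stretch, from the gene of a NEDD8-conjugating enzyme, 1, and both include GGACT. The stretches of RAB35, a Rab GTPase, of RALY, an RNA-binding protein, and of FBN1, the fibrillin of elastic fibres, hold none. Their summits lay 9, 10 and 10 nt from the start. Over the 42 windows, GGACT was found on the window's strand in 20 (47.6%), against 25.3% of all 35116 windows. The letters were present in 8 of 28 windows with a kept summit (28.6%) and in 44 of 116 with an NTC summit (37.9%). The shorter GGAC, which GGACT contains, was in 73.8% of the 42 windows, 78.6% of those with a kept summit, 75.9% of those with an NTC summit and 66.3% of all. On either strand, GGACT was in 64.3% of the 42 windows, 53.6% of those with a kept summit, 59.5% of those with an NTC summit and 44.2% of all. Chromosome 8 was skipped for the 42 windows only, so the sets may not cover the same chromosomes. These shares cover whole windows of 300 bases, 250 of them before the listed start, and not only the bases near a summit. How often the letters lay within 50 nt of a summit was not compared between the sets. A match of letters is a description and does not place a methylated base.

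KD-only summits fell mostly in genes that also carried m6A summits in control cells. Of 1910 on the main chromosomes, 1653 (86.5%) lay in 1 protein-coding gene, 128 (6.70%) in 2 or more, and 129 (6.75%) in none. Kept summits were in 1 protein-coding gene in 89.9%, in several in 5.79% and in none in 4.35%. Of the 1653 in a single gene, 1267 (76.6%, interval 74.5 to 78.7%) were in a gene with an NTC summit somewhere in its span, and 386 (23.4%) in a gene without one. The host genes numbered 1416. Of these, 1220 held 1 KD-only summit, 168 held 2, 22 held 3 and 6 held 4 or more, and 554 (39.1%) also held a kept summit. A lncRNA gene held 62 of the 129 summits outside protein-coding genes, with the highest scores at LINC01145 (18.04), FAM157A (14.02) and BAIAP2-DT (13.05). A further 73 of the 1983 (3.68%) were on unplaced or alternate contigs, and 10 of those were on contigs with no NTC summit at all.

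Distances of KD-only summits ran from 101 nt to 8771301 nt from the nearest control summit. The nearest NTC summit was a median of 614 nt away (quartiles 240 and 27720 nt, n = 1973). Within 500 nt of an NTC summit lay 889 (44.8%), and 315 of those were at 150 nt or less. Another 506 (25.5%) were farther off but in a gene with an NTC summit, 386 (19.5%) were in a gene without one, and 202 (10.2%) fit neither, being outside genes, in overlapping genes or on contigs. Of the 889 near ones, the closest NTC summit itself had no KD summit within 100 nt in 787 (88.5%, interval 86.2 to 90.5%). In the other 102, the NTC summit also had a kept KD summit, so the knockdown list had an extra position there. The near summits lay 3′ of the NTC summit in 300 of 633 with a known strand (47.4%, interval 43.4 to 51.4%). The kept summits that were not at an identical base lay 3′ in 1408 of 2691 (52.3%, interval 50.4 to 54.2%).

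The 100 nt limit fell within a continuous range. There were 86 KD-only summits up to 10 nt beyond the limit and 102 kept summits in the last 10 nt within it. Just inside the rule, at 101 nt, were summits in B3GNT9 (score 18.34), SMAD3 (14.20), MUC5B (7.33), SETD6 (7.16) and LOC124900163 (4.86). Just outside it, at 100 nt, were A4GALT (12.10), BTBD3 (9.63), ZNF17 (5.68), INHBA (4.68) and ZNF354C (3.65). Scores are the authors' peak scores, -log10 of the q value.

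**Figure D1:**
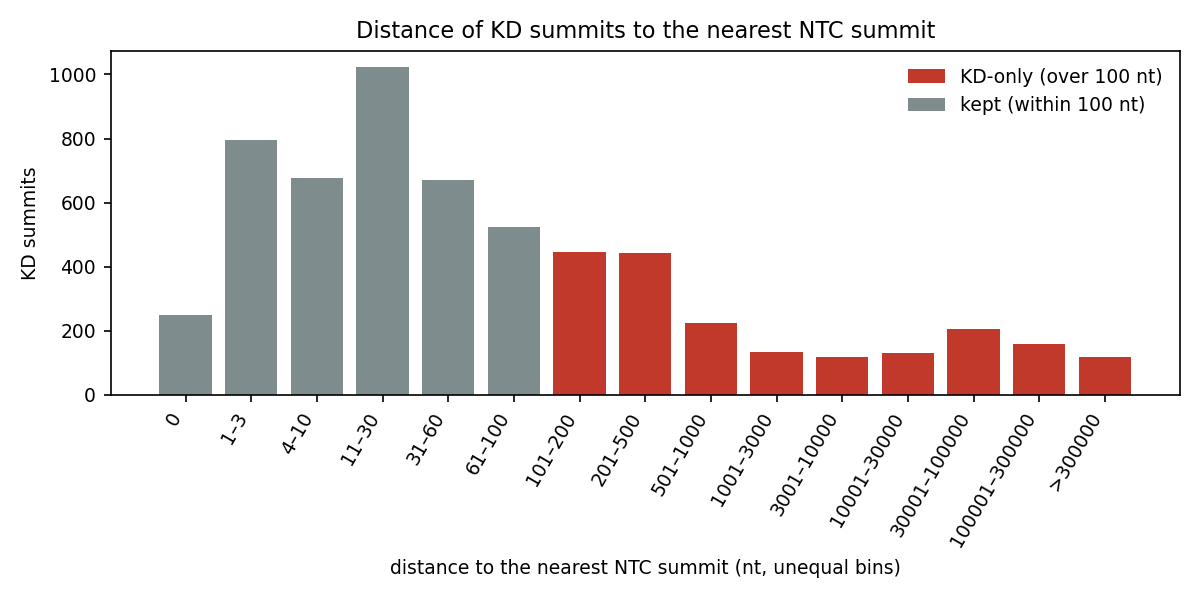
Number of KD summits (y axis) by distance to the nearest NTC summit in nt (x axis, unequal bins), with KD-only summits in red and kept summits in grey. Kept summits peak at 11 to 30 nt (1023 summits), and 445 KD-only summits lie at 101 to 200 nt.

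Scores of KD-only summits had a median of 5.66 (quartiles 3.81 and 7.89, range 1.30 to 29.0), and those of kept summits a median of 7.51 (4.88 and 10.8, highest 36.8). Since the same call decides whether a summit is in a list, this is a description of the rule. The share of KD summits that were KD-only was 44.7% (187 of 418) at scores below 2.5 and 10.9% (11 of 101, interval 5.56 to 18.7%) at 20 or above. The near summits had a median score of 5.86, those farther off in genes with an NTC summit 5.57, and those in genes without one 5.54. Of the 11 scoring 20 or above, 10 lay within 500 nt of an NTC summit and 1, in SNX18, lay in a gene without one. Over chromosomes 1 to 22 and X, the share ran from 27.1% on chromosome 18 to 40.2% on chromosome 4. The Y chromosome was left out of this range.

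**Figure D2:**
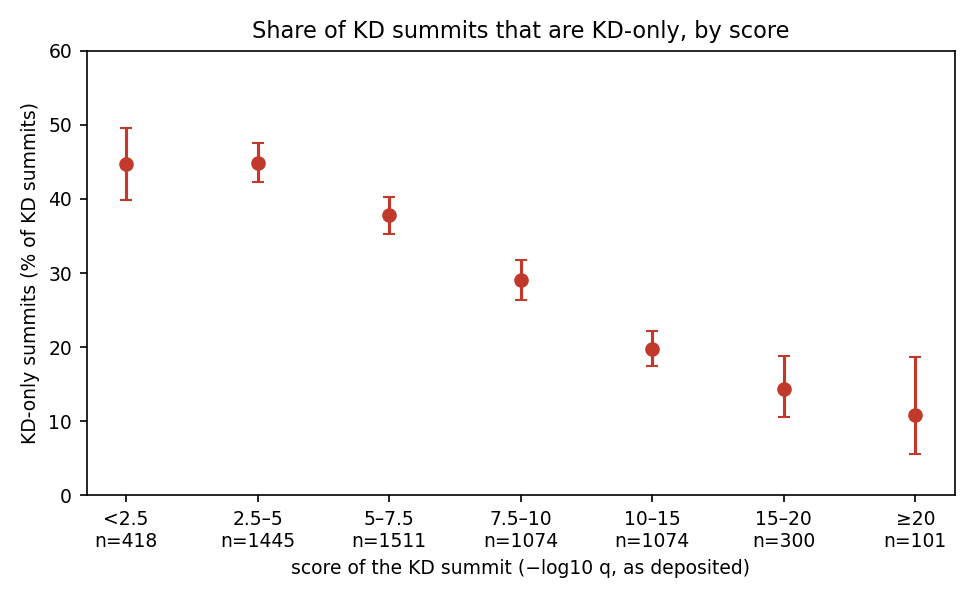
Percentage of KD summits that are KD-only (y axis) by score of the KD summit, -log10 q as deposited (x axis), with exact 95% binomial bars for counting error. The share is 44.7% in the lowest bin and 10.9% in the highest.

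Most of the top-scoring KD-only summits were close neighbours of a control summit. USP32, a membrane-bound deubiquitinase, had the highest score, 28.96, at chr17:60181708, 108 nt from an NTC summit. IL17RA, the receptor subunit for interleukin 17, scored 24.24 at 106 nt. HDHD3 scored 23.07 at 364 nt and DCUN1D2, a cofactor of cullin neddylation, 22.97 at 132 nt. B4GALNT4, a glycosyltransferase gene, scored 22.93 at 153 nt, MTCL2, a microtubule crosslinker, 22.65 at 119 nt, and RGL1, an exchange factor for Ral GTPases, 21.90 at 139 nt. The 20 highest also include SLC9A3, a sodium-proton exchanger (20.57), BCORL1, a transcriptional corepressor (19.42), PDE4A, a cAMP phosphodiesterase (18.95), and ARID1B, a SWI/SNF subunit (18.83). Apart from SNX18, only 3 of the 20 lay beyond 500 nt: BCORL1 at 5342 nt, PKP3 at 17236 nt and PDXK at 31416 nt. In knockout against NTC cells, 0 of the 19 with RNA data passed in limma (adjusted p 0.132 to 0.885), edgeR or DESeq2, and 2 had an unadjusted limma p below 0.05. Of all 15965 genes tested, 3.98% passed in limma, 4.29% in edgeR and 10.2% in DESeq2, and 20.9% had an unadjusted limma p below 0.05. TIGD5, which scored 19.08, was not analysed in RNA here.

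A few genes carried several KD-only summits. MUC5B, a gel-forming airway mucin, had 10, between chr11:1241447 and chr11:1249220, with scores from 3.89 to 7.87. They were all of its KD summits, and the gene had 2 NTC summits, at chr11:1242167 and chr11:1249321. SMCR8, a partner of C9orf72 in autophagy, had 5, the highest scoring 13.19. CUX1, a homeobox factor, ZNF782, TET3, a 5-methylcytosine dioxygenase, and C15orf39 had 4 each. ST3GAL2, a sialyltransferase, MTCL2, FBXO31, an F-box protein, and HIVEP3 had 3 each. MUC5B RNA varied widely between libraries: 376, 253 and 211 normalized reads in sg1 cells and 143, 21.1 and 7.84 in sg2 cells, against 98.0, 30.3 and 136 in NTC cells. These ranges overlap, and neither the mean of both guides (limma, adjusted p = 0.868) nor either guide alone (0.184 and 0.393) passed. Its sg2 and sg1 levels differed by a log2 fold change of -3.17 ± 0.88 (adjusted p = 0.0288), as 29.8% of all genes tested did between the guides. VIRMA itself had 1 KD-only summit (score 5.86), 7692 nt from its single NTC summit (6.11). HAS2, the hyaluronan synthase gene in the series title, had 1 NTC summit (8.94) and no KD summit, so it is not among the hosts.

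The 367 host genes without any NTC summit had a KD-only summit in a span with no control summit, and 18 of them had 2 or more KD-only summits. The highest-scoring was SNX18, a sorting nexin of endocytosis, with 21.90 at chr5:54543166, 622931 nt from the nearest NTC summit. PKP3, a desmosomal plakophilin, followed with 18.83, SNN (stannin) with 16.95, MAP2K7, a kinase that activates JNK, with 15.05, and CAVIN3, a caveolar coat protein, with 13.84. MMP15, a membrane-type metalloprotease, scored 13.70, ZNF205 13.65, USP53 12.81, TFPT, a subunit of the INO80 remodeller, 12.51, and GRPEL2, a mitochondrial nucleotide exchange factor, 12.40. Of the 9 with RNA values, MMP15 alone passed in limma in the mean of both guides, where 3.98% of all genes tested did.

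Summits near gene starts made up a larger share of KD-only than of kept summits. Of the 1356 with a strand from RefSeq windows, 79 (5.83%, interval 4.64 to 7.21%) lay within 300 nt of a listed start, against 86 of 2869 kept summits (3.00%, 2.40 to 3.69%) and 227 of 5918 NTC summits (3.84%). The share was 2.69% in the near summits, 8.74% in the farther ones of genes with an NTC summit and 8.36% in genes without one. With scores at or above the KD median it was 5.09% in KD-only and 2.79% in kept summits, and below it 6.27% and 3.27%. No test of the libraries is possible, and the intervals cover counting of summits only. With the span cut into 10 equal parts, the most 5′ of them held 11% of KD-only and 7.42% of kept summits, and the most 3′ held 34.2% and 40.1%. Within 1000 nt of the 3′ end lay 10.5% and 13.7%. The median position was 78.2% of the span for KD-only and 84.0% for kept summits, both toward the 3′ end. Exons, introns and untranslated regions were not analysed here. The start-proximal summits of highest score, picked after their values were seen, were in KLHL42, PDXK, which makes pyridoxal phosphate (18.49), FADD, the death-receptor adaptor (14.92), PRRC2B (13.99), ATP7B, a copper transporter (13.55), and SLC25A28, a mitochondrial iron carrier (13.09).

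**Figure D3:**
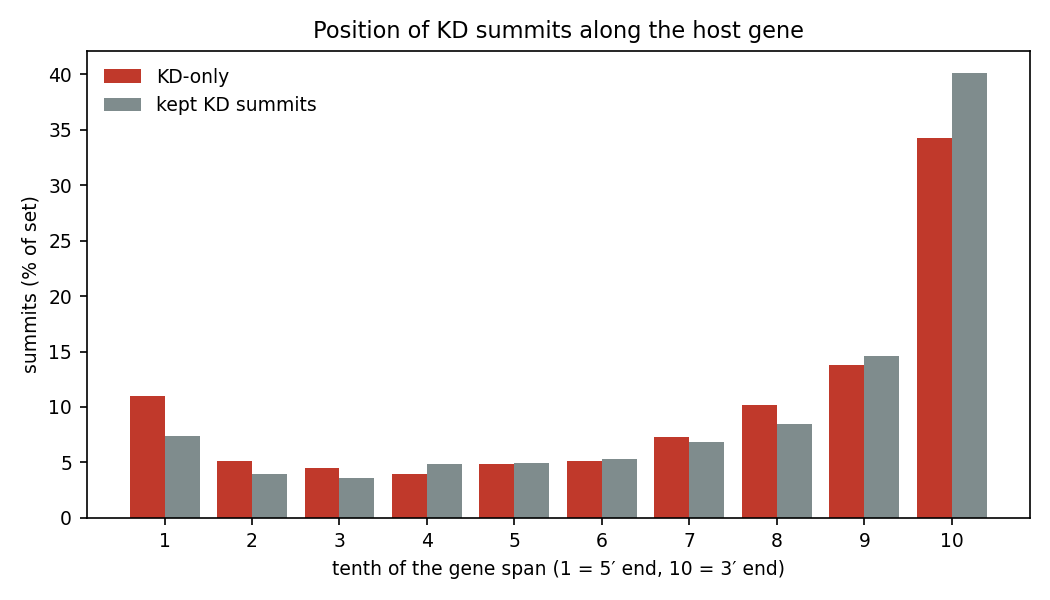
Percentage of summits (y axis) in each of 10 equal parts of the host gene's span from the 5′ to the 3′ end (x axis), KD-only in red (1356 summits) and kept in grey (2869). The part at the 5′ end holds 11% of KD-only and 7.42% of kept summits, and the part at the 3′ end 34.2% and 40.1%.

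RNA levels of the host genes were read from the knockout libraries, a measure the rule did not use. In bulk RNA, fewer expressing cells and less RNA per cell cannot be told apart. Of 1416 host genes, 1368 were tested, and 69 (5.04%) changed in the mean of both guides against NTC, 30 higher and 39 lower (limma on log2 of the normalized count plus 1, Benjamini-Hochberg over all genes, threshold 0.05). Among all 15965 genes tested, 3.98% changed, 1.74% higher and 2.25% lower. In genes with a kept but no KD-only summit, 120 of 2032 changed (5.91%). The shares were 25 of 348 (7.18%, 14 higher and 11 lower) in hosts without an NTC summit and 44 of 1020 (4.31%, 16 higher and 28 lower) in hosts with one. The median log2 fold change of the 1368 hosts was 0.00, as for all genes. For sg1 alone 7 hosts passed (0.512%, background 0.194%), and for sg2 alone 151 (11%, background 8.76%). The guides were closer at an unadjusted limma p below 0.05, with 356 hosts for sg1 and 425 for sg2. Among all 15965 genes tested, 4756 were below it for sg1 and 4158 for sg2. The knockout and NTC libraries did not overlap in 25 of the 30 that rose and 34 of the 39 that fell (83.3% and 87.2%), against 87.7% and 84.7% of all genes that rose and fell. Such hosts were 1.83% and 2.49% of the 1368, where 1.52% of all genes tested rose and 1.9% fell that way. Of 78 hosts of start-proximal summits 9 changed (11.5%), a group chosen after its values were seen.

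The count of 69 rested on which libraries entered. Leaving out NTC-1 gave 2 hosts (0.146%, against 0.189% of all genes), and leaving out NTC-3 gave 8 (0.585%, against 0.453%). With NTC-2 left out there were 36 (2.63%, against 1.83%). Dropping sg1-1 gave 29 (2.12%, against 1.49%), dropping sg1-2 gave 26 (1.90%, against 1.44%) and dropping sg2-2 gave 29 (2.12%, against 2.06%). The count moved less without sg1-3, to 53 (3.87%, against 2.84%), and without sg2-3, to 50 (3.65%, against 3%). Dropping sg2-1 raised the count to 357 (26.1%, against 22% of all genes). With sg1-3 and sg2-1 both left out, an alternative added after seeing the data, 434 of 1367 hosts passed (31.7%, against 27.2% of all genes).

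The hosts named next have the 8 largest rises and the 8 largest falls among those that passed at an adjusted p below 0.05 and whose knockout and NTC libraries did not overlap, so the lack of overlap is part of the choice. Of the 8 rises, 5 were in genes with no NTC summit, where 25.9% of all hosts have none. Among all 30 hosts that rose, 14 had none. SLAMF7, a receptor of immune cells, had 140, 191 and 162 normalized reads in sg1 cells and 376, 237 and 210 in sg2 cells, against 40.8, 47.5 and 45.7 in NTC cells. All 6 knockout libraries were above the NTC libraries, and the log2 fold change was 2.20 ± 0.20 (SE; limma, adjusted p = 0.00127). Its only KD summit scored 6.52. WWC1 (KIBRA), an activator of the Hippo kinases, had 536, 559 and 574 in sg1 cells and 877, 764 and 772 in sg2 cells, against 245, 284 and 223 in NTC cells. The sg2 libraries were the highest, and the log2 fold change was 1.42 ± 0.11 (limma, adjusted p = 0.000794). HDAC9, a class IIa histone deacetylase, rose by 1.32 ± 0.20, with 464 to 904 normalized reads (median 626) in knockout libraries against 226, 297 and 244 in NTC cells (adjusted p = 0.00826). TNFSF15, a cytokine of the TNF family, had 253, 283 and 223 in sg1 cells and 202, 119 and 127 in sg2 cells, against 80.5, 75.8 and 81.5 in NTC cells (1.26 ± 0.18, adjusted p = 0.0071).

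MMP15 had 119, 104 and 166 normalized reads in sg1 cells and 135, 68.5 and 75.8 in sg2 cells, against 52.5, 52.6 and 53.1 in NTC cells. Libraries sg2-2 and sg2-3 were nearest to NTC, and the rise of 1.00 ± 0.24 was just past the threshold (limma, adjusted p = 0.0481). It lost the call in every fit that left out 1 library except the fit without sg2-1. Its KD-only summit lay 19405 nt from the start. The other rises were in RRS1, a ribosome assembly factor (1.02 ± 0.19), KANK1, a regulator of actin at adhesions (0.93 ± 0.16), and EEPD1, a nuclease (0.88 ± 0.18). These 3 genes had NTC summits.

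**Figure D4:**
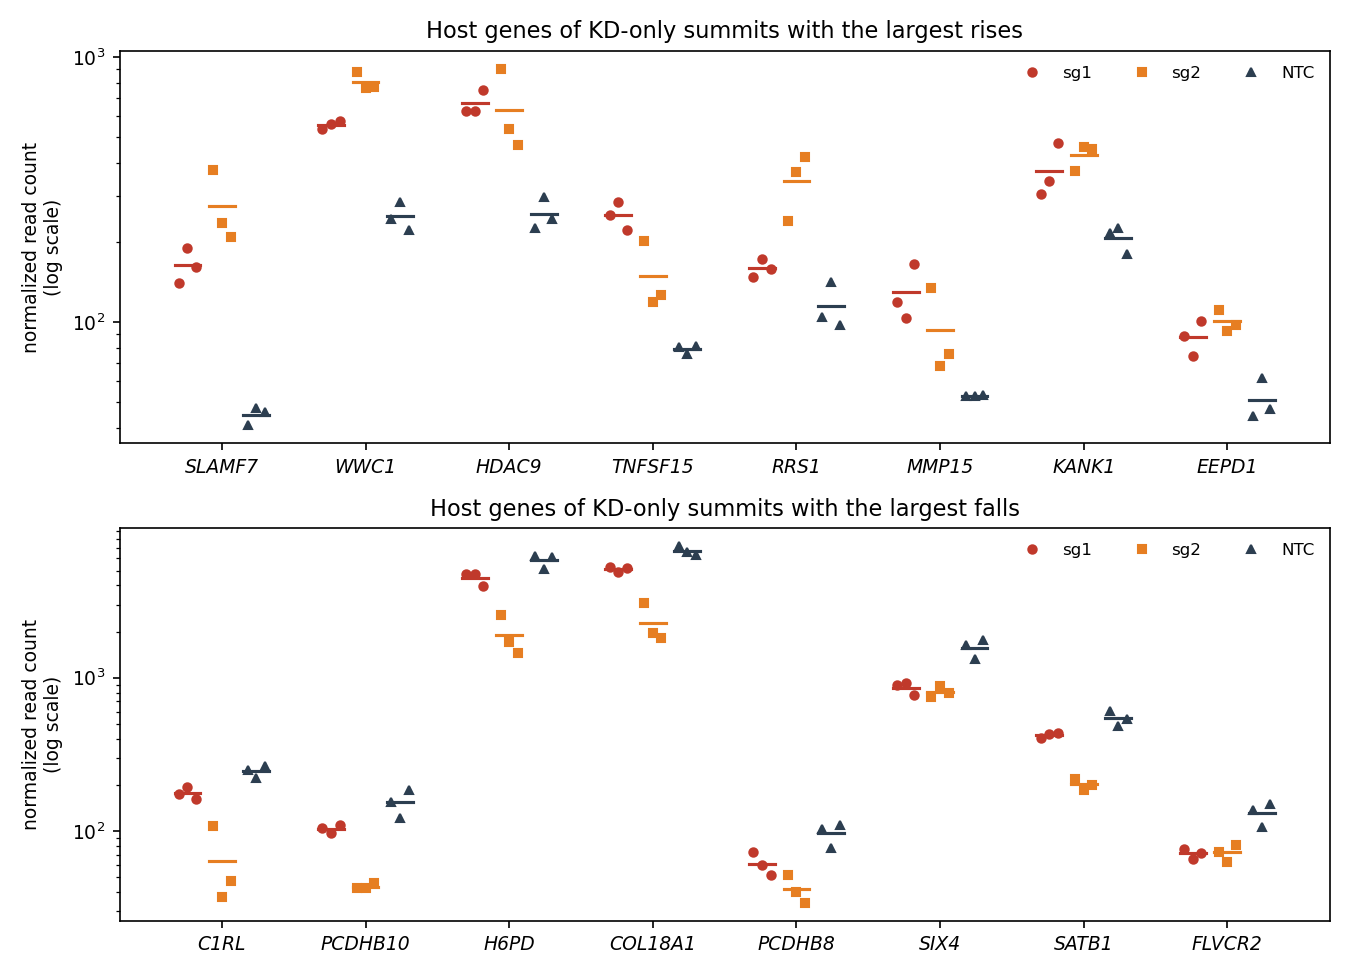
Normalized read count (y axis, log scale) of each RNA-seq library for the 8 largest rises (top) and the 8 largest falls (bottom) among host genes that passed the threshold without overlap of knockout and NTC libraries, sg1 as circles, sg2 as squares and NTC as triangles, with a bar at each group's mean. The choice of genes fixes the lack of overlap; SLAMF7 is at 140 to 376 in knockout cells against 40.8 to 47.5 in NTC cells.

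The 8 largest falls, chosen in the same way, were in genes with an NTC summit except for FLVCR2, and 74.1% of all hosts have one. Among all 39 hosts that fell, 28 had an NTC summit and 11 had none, a split near that of all hosts. SIX4, a homeobox transcription factor, held 3 KD-only summits (scores 8.08, 6.64 and 6.22), all of its KD summits, beside 3 NTC summits. It had 901, 919 and 766 normalized reads in sg1 cells and 753, 885 and 796 in sg2 cells, against 1622, 1332 and 1756 in NTC cells. Both knockout groups were at similar levels below NTC, with a log2 fold change of -0.90 ± 0.12 (limma, adjusted p = 0.00679). FLVCR2, a choline transporter, had 76.6, 65.3 and 72.1 in sg1 cells and 73.4, 63.2 and 81.0 in sg2 cells, against 137, 106 and 149 in NTC cells. It fell by 0.84 on the log2 scale (SE 0.17, adjusted p = 0.0248).

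The other falls were larger in sg2 than in sg1 cells in each mean. C1RL, a complement protease relative, averaged 177 ± 16.6 normalized reads in sg1 cells and 63.6 ± 37.9 in sg2 cells, against 245 ± 21.0 in NTC cells (SD, n = 3 each). H6PD, the hexose-6-phosphate dehydrogenase of the endoplasmic reticulum, averaged 4495 ± 450 and 1907 ± 593 in sg1 and sg2 cells, against 5822 ± 613 in NTC cells. COL18A1, the collagen that yields endostatin, averaged 5099 ± 201 and 2276 ± 680 in sg1 and sg2 cells, against 6707 ± 467 in NTC cells. SATB1, a chromatin organiser, averaged 422 ± 17.8 and 202 ± 17.4 in sg1 and sg2 cells, against 542 ± 64.3 in NTC cells. PCDHB10 and PCDHB8 are clustered protocadherins whose close relatives can share reads, so their values are uncertain. They changed by log2 fold changes of -1.17 ± 0.16 and -0.92 ± 0.20.

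Of these 16 genes, 14 lost the call without NTC-1 and 12 without NTC-3. SLAMF7 and WWC1 passed in all 17 alternative fits, SIX4 and SATB1 in all but the fit without NTC-1.

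Of 12722 protein-coding genes tested in RNA, 10.8% held a KD-only summit and 26.7% held any KD summit. Whether a list's count is particular to KD-only summits was not tested. Large chromatin regulators held KD-only summits in 17 of 41 genes, and any KD summit in 34 of the 41. Of the 17, 0 passed in RNA with limma, edgeR or DESeq2, with 1 at an unadjusted limma p below 0.05. Over all genes, 3.98% passed in limma, 10.2% in DESeq2 and 20.9% at the unadjusted p. ARID1A, a SWI/SNF subunit (score 18.16), and NSD1, a histone methyltransferase (17.39), were among the 17. Zinc finger ZNF genes held any KD summit in 180 of 439 and KD-only ones in 82, of which 0 rose and 1 fell. That one, ZNF581, was named after its values were seen and averaged 267 ± 8.86 normalized reads in sg1 cells and 270 ± 8.43 in sg2 cells, against 384 ± 33.4 in NTC cells (SD, n = 3 each; limma, log2 fold change -0.51 ± 0.10, adjusted p = 0.0286). In the m6A writer complex 3 of 8 genes held one, RBM15 (12.13), RBM15B (8.45) and VIRMA. Of those 3 genes, 0 passed in limma or edgeR and 1, VIRMA, in DESeq2, and 1 had an unadjusted limma p below 0.05. Among readers YTHDF3 (3.78) was 1 of 12. METTL16, a separate m6A methyltransferase, scored 8.12. Cytosolic ribosomal protein genes had 0 of 79, mitochondrially encoded genes 0 of 17, replication-dependent histones 0 of 43, all 3 lists without any KD summit, and integrins and laminins 0 of 21. Hyaluronan genes had 0 of 14.

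Hippo pathway genes and YAP targets held KD-only summits in 6 of 21 tested, of which 2 rose and 0 fell in limma, where 3.98% of all genes tested changed. DESeq2 called 4 of the 6, and 10.2% of all genes. Of the limma calls, one was WWC1 and the other AJUBA, a LIM protein that restrains LATS kinases. AJUBA averaged 2415 ± 88.1 normalized reads in sg1 cells and 4597 ± 545 in sg2 cells, against 1970 ± 103 in NTC cells (SD, n = 3 each; log2 fold change 0.76 ± 0.10, limma adjusted p = 0.00689). The median of the 6 was 0.48, beside 0.00 over all genes tested. LATS2, a Hippo kinase, had a log2 fold change of 0.35 ± 0.10 that did not pass (adjusted p = 0.0828).

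Hypoxia and glycolysis genes held them in 3 of 31, of which 1, EGLN3, fell. EGLN3, a HIF prolyl hydroxylase, had a log2 fold change of -0.66 ± 0.12 (limma, adjusted p = 0.0167) and no NTC summit. By guide the fold change of EGLN3 was -0.23 in sg1 cells (limma, adjusted p = 0.267) and -1.10 in sg2 cells (adjusted p = 0.00182). Its KD-only summit scored 1.8, close to the lowest score of the KD list, 1.3. PFKP, a phosphofructokinase with 2 KD-only summits and no NTC summit, stayed at 7801 to 9705 normalized reads in knockout cells against 8989 to 9402 in NTC cells. Immediate early genes held them in 6 of 24, TGF beta and BMP genes in 3 of 21, collagens and matrix genes in 3 of 21 and receptor tyrosine kinases and ligands in 3 of 21. COL18A1 was the only host among these 4 lists that passed in limma or edgeR. DESeq2 also called 1 of the immediate early hosts and 2 of the TGF beta and BMP hosts. Over all genes tested, 3.98% passed in limma, 4.29% in edgeR and 10.2% in DESeq2. FBN1, whose start carried the summit printed above, had 2190, 2247 and 3139 normalized reads in sg1 cells and 2056, 1157 and 1148 in sg2 cells, against 2389, 2217 and 2483 in NTC cells, and did not pass (adjusted p = 0.364). G1/S genes held them in 2 of 25, G2/M genes in 1 of 24, mitochondrial ribosomal proteins in 3 of 74, translation factors and chaperones in 1 of 26, solute carriers in 21 of 256 and keratins and plakins in 5 of 26. In these 6 lists DESeq2 called 1 G2/M host and 1 keratin or plakin host that limma did not call, and 1 host passed in limma: SLC3A2, the heavy chain of amino acid transporters, named after its values were seen, averaged 3390 ± 162 normalized reads in sg1 cells and 5513 ± 456 in sg2 cells, against 3113 ± 348 in NTC cells (SD, n = 3 each; limma, log2 fold change 0.48 ± 0.10, adjusted p = 0.0361).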

How the data were processed

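MeRIP-seq summits and RNA-seq gene values were used as deposited. The submitters' processing notes list build hg38 and, without roles or settings, STAR, HTSeq, MACS2, DESeq2, cutadapt and FastQC 0.11.8. Each deposited summit list holds 1 position per summit and a score, -log10 of a q value by the MACS2 convention, lowest 1.30 in the KD list. The deposited RNA-seq table is a normalized signal: by its values, each library's gene counts were scaled by a single factor. In each library 100% of values in each library came out as whole reads within a tolerance of 0.1, less certainly in NTC-2, whose factor is near 1. Limma 3.58.1 (R 4.3.3, trended prior) was fitted to log2(value + 1) of 15965 of 38616 genes with at least 10 in 3 libraries, in place of a count test, since the table is normalized; edgeR 4.0.16 and DESeq2 1.42.0 were run on the recovered reads as alternatives. Summits were placed in RefSeq gene spans (GRCh38.p14), with strand and starts from RefSeq start windows, which gave a strand to 15843 of 20050 protein-coding genes. Scripts were tested on simulated data. Named genes are the hosts of the 20 highest scores, the 10 with most KD-only summits, the 10 of highest score without an NTC summit, the 8 largest rises and 8 largest falls among hosts past an adjusted p of 0.05 without overlap, up to 4 of each gene list, VIRMA and HAS2. Members and lists were chosen with earlier results of these data known. Replicate numbers did not pair NTC with knockout libraries. Results of some host genes are not reported here.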

Additional observations from a re-analysis of the deposited data

Results flagged for a closer look

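In 9 of the 16 host genes with the largest RNA changes among those past the threshold without overlap, the sg2 effect against NTC differed from the sg1 effect (limma, sg2 minus sg1 on the log2 scale, 3 libraries each, Benjamini-Hochberg over 15965 genes, no replicate block). Of all genes tested 29.8% differed between the guides in this way, and of the host genes 28.4%. The 16 were picked by their calls and lack of overlap in the same fit, so their share is not like for like with these. Same-numbered sg1 and sg2 libraries correlated in their deviations from the group mean. With a replicate block in these libraries, 9 of the 16 again passed, and 39.4% of all genes did. The difference was positive in SLAMF7 (0.70, adjusted p = 0.0442), WWC1 (0.53, adjusted p = 0.0206) and RRS1 (1.05, adjusted p = 0.0181), where sg2 cells had the larger rise. In TNFSF15 it was -0.79 (adjusted p = 0.0255), with the larger rise in sg1 cells. It was -1.61 in C1RL (adjusted p = 0.0174), -1.23 in PCDHB10 (0.0112), -1.28 in H6PD (0.0116), -1.20 in COL18A1 (0.0112) and -1.06 in SATB1 (0.00793), where sg2 cells had the larger fall. Both guides moved these genes in the same direction from NTC in each fitted value. The sg2-1 library sat nearer to the sg1 libraries than to the other sg2 libraries, and its part in these differences was not tested.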

How the results depend on the processing

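The number of KD-only summits follows the rule's settings by construction: 1094 at 500 nt, 266 for KD scores of at least 10 and 4031 against NTC scores of at least 10, beside 1983. Those in genes with an NTC summit then numbered 506 at 500 nt and 201 for KD scores of at least 10, beside 1267. Of all genes, 636 changed, and 1632 with DESeq2, 336 with no filter on low values, and 4165 without sg1-3 and sg2-1 together, an alternative chosen after seeing the data; leaving out 1 library gave 30 to 3460. Of the host genes, 69 changed, and 180 with DESeq2, 37 with no filter, 434 without sg1-3 and sg2-1, and 6 when summits scored at least 10; leaving out 1 library gave 2 to 357. The cause was not tested. Replicate numbers are shared only as numbers. To look for pairing, each library's deviations from its group mean were correlated over genes. Between same-numbered NTC and knockout libraries these correlations ran from -0.131 to 0.02. Between same-numbered sg1 and sg2 libraries they ran from 0.156 to 0.258, each best with its own number. With a replicate block in all 9 libraries 290 genes and 33 hosts changed, and with the block in knockout libraries only 750 and 78. The 16 largest called rises and falls, VIRMA and HAS2 were refitted in 17 RNA alternatives, and none of these 18 changed direction; 240 values kept their side of the threshold, 63 lost the call and 3, all VIRMA, gained it. With 1 pull-down per condition, depth limits which summits were called in either list, and the total reads of the pull-downs are not given in the sources used here.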
